A study of Mus musculus with 11 samples.

Results

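The miRNAs described here are the 70 rows of a mouse small RNA count table named miR-297, miR-466, miR-467 or miR-669, with any letter, copy number and arm suffix, out of 2304 rows of which 1592 were miRNAs. They are known as the miRNA cluster of Sfmbt2, a Polycomb-related gene on chromosome 2. Chosen by name alone, they comprised 6 rows of miR-297, 26 of miR-466, 13 of miR-467 and 25 of miR-669. A miRNA row is 1 arm (5p or 3p) of a hairpin precursor, or of several precursors with the same name. The rows were read in 11 libraries of total RNA from C57BL/6 mice, made to ask how small RNAs of gametes and early embryos depend on Dicer and Drosha. Sperm came from the cauda epididymis of adult males that were wild type (WT, 2 libraries), carried a germline conditional knockout (cKO) of Dicer (2 libraries) or carried a germline cKO of Drosha (3 libraries). The cKOs were made by Cre-loxP recombination, and the labels do not name the Cre line. WT oocytes from superovulated females, and embryos with 2 pronuclei (2PN) made by injecting sperm of the 3 genotypes were read in 1 library per kind. The labels call 2PN embryos by the genotype of the sperm and do not say which oocytes were injected.

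Most miRNAs are made in 2 cuts. Drosha, with its partner protein, frees the hairpin from its primary transcript in the nucleus, and Dicer trims the exported hairpin to a duplex from which one arm is usually kept. The Sfmbt2 cluster is one of the largest in the mouse genome, is built of repeated units and lies in an intron of a gene expressed from the paternal allele in early embryos and placenta, where the cluster is known to be needed for normal placental growth. miR-669a is known as a repressor of the muscle regulator MyoD.

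The name of the cluster held for most of the rows but not for all. RefSeq on GRCm38 places Sfmbt2 at chr2:10370440-10595253 and 72 miRNA genes within it, and all 72 belong to the 4 families. Every hairpin of 56 rows lay within Sfmbt2. Another 5 rows (both arms of miR-297a and the 3 rows of miR-466f) had hairpins both within and outside the gene. The remaining 9 rows lay elsewhere. These were both arms of miR-466i within Cdk13 on chromosome 13, miR-466j on chromosome 10, miR-466k, miR-466q within Tnik and miR-669n within Slc30a7 on chromosome 3, miR-467f within Fxr2 on chromosome 11, miR-467g within Grk4 on chromosome 5, and miR-467h outside any RefSeq gene on chromosome 9. On the older build NCBIM37, a GENCODE annotation put 68 of the 69 hairpins of these names on chromosome 2 inside 1 intron of 62472 bases. Of the 69, 68 were on the plus strand.

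The 72 hairpins spanned 51.6 kb, from position 10466663 to 10518279 of GRCm38. By family they were 5 of miR-297, 24 of miR-466, 14 of miR-467 and 29 of miR-669. Between 7.27 and 36.6 kb from the first hairpin, a run of miR-467, miR-466 and miR-669 hairpins in that order occurred 12 times, with a median of 2452 bases from one run to the next. Several names therefore stand for many copies: 12 hairpins for miR-669a, 10 for miR-467a and 8 for miR-466b. Reads of such a name cannot be assigned to a copy, and the table does not say how reads that match several members were counted.

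RefSeq mature sequences could be matched by name to 8 of the 70 rows, all of them from loci outside Sfmbt2. The following 5 are printed because their counts recur below or, for miR-466k, because its sequence is among the closest to that of miR-467h, with the seed (bases 2 to 8, counted from the 5′ end) in capitals.
miR-467h: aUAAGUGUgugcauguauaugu
miR-466i-3p: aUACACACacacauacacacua
miR-467f: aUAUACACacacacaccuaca
miR-466k: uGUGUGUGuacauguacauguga
miR-669n: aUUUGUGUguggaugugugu
Each holds a stretch of alternating G and U or of alternating C and A. A run of at least 6 such alternating bases was present in 8 of the 8 matched sequences and in 2.92% of the 1679 mouse miRNAs of RefSeq, and a run of at least 8 in 6 of the 8 and in 0.774%. No seed was shared among the 8, although their bodies are alike: miR-467f and miR-467g agree at 17 bases when aligned with an offset of 1 base, as do miR-466k and miR-467h. The seed of miR-467h is also that of miR-668-5p. The RefSeq hairpin of miR-467h, with its mature arm in capitals, shows the arm on the 3′ side of the stem.
miR-467h hairpin: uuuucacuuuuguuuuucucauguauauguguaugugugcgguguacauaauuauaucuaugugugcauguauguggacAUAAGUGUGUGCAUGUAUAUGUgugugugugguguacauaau

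The depth of the libraries bounded what could be seen. The sperm libraries held from 12003 listed reads (Drosha cKO replicate 2) to 278890 (WT replicate 2), and the oocyte and 2PN libraries from 2951 to 8967. A count of 3 reads, the limit taken for a row with no reads, corresponded to 10.8 CPM (taken over listed reads) in WT replicate 2 and to 249.9 CPM in Drosha cKO replicate 2. Messenger RNA was not measured, so the deletion of Dicer or Drosha was not checked. Markers of male germ cells (miR-34 and miR-449) took 16.3% to 18.1% of listed reads in WT sperm. The same markers took 0.719% in both Dicer cKO libraries and, for Drosha cKO, 1.46% to 2.48%. Nothing in the labels ties libraries to separate animals, and p-values therefore reflect the spread between libraries only, which may be technical.

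In WT sperm the members were abundant, and in both knockouts they were a minor class. Among listed reads their share was 2.46% and 5.74% for the WT libraries, 0.281% and 0.409% for the Dicer cKO libraries, and 0.481%, 0.783% and 0.578% for the Drosha cKO libraries. Both WT libraries stood above every cKO library, and on this scale the Drosha cKO libraries stood above the Dicer cKO libraries. On the RPM scale deposited by the authors the knockouts overlapped, with 124 and 287 RPM in Dicer cKO against 129.6, 228 and 122 RPM in Drosha cKO libraries. As group means this was 4.10% ± 2.32 (SD, n = 2) in WT, 0.345% ± 0.0907 (SD, n = 2) in Dicer cKO and 0.614% ± 0.154 (SD, n = 3) in Drosha cKO sperm, from 17816, 787 and 671 member reads. The WT libraries differed from each other by a factor of 2.33 on this scale and of 10.9 on the RPM scale that the authors deposited, on which all listed rows together differed by 4.66. In bulk RNA, fewer cells of a type and less RNA per cell cannot be told apart.

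**Figure D1:**
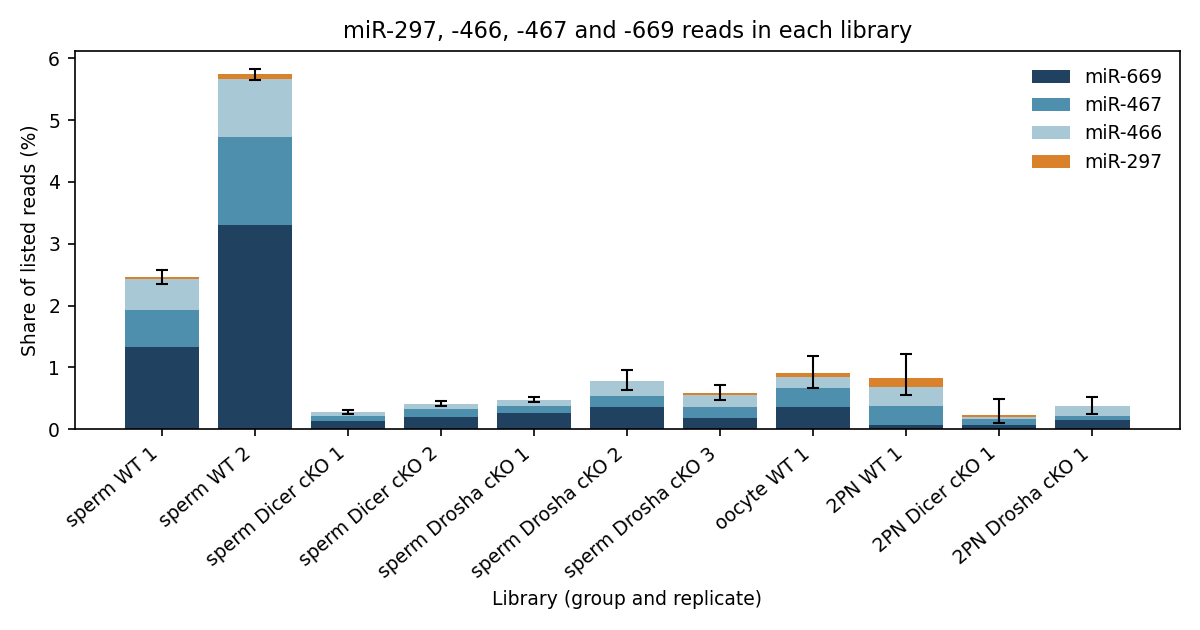
Share of listed reads (%) taken by the 70 rows in each of the 11 libraries, stacked by family, with the exact 95% interval of the total (counting error only). WT sperm reached 2.46% and 5.74%, the 5 cKO sperm libraries lay between 0.281% and 0.783%, and miR-669 was the largest family in 6 of the 7 sperm libraries, with miR-466 (35.9% of member reads) ahead of it (32.6%) in Drosha cKO replicate 3.

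The plot of shares by library also shows the makeup of the class. In WT sperm miR-669 held 55.9% ± 2.53 of the member reads (SD, n = 2), miR-467 24.4% ± 0.365, miR-466 18.5% ± 2.90 and miR-297 1.27% ± 0.00158. In Drosha cKO sperm miR-669 held 44.3% ± 10.7 (SD, n = 3) and miR-466 29.3% ± 6.81, and in Dicer cKO sperm the values were 48.9% ± 0.0825 and 20.0% ± 0.794 (SD, n = 2). Rows wholly within Sfmbt2 supplied 95.1% ± 0.351 of member reads in WT, 90.4% ± 1.21 in Dicer cKO and 86.3% ± 2.69 in Drosha cKO sperm. The 9 rows from other loci held a larger fraction of what remained, from 3.71% ± 0.233 to 7.08% ± 1.82 and 9.61% ± 4.88, while their own share of listed reads was lower, at 0.149% ± 0.0763, 0.0252% ± 0.0127 and 0.0575% ± 0.0274 in the same order. These fractions are descriptions and were not tested.

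At least 1 read was counted for 67 of the 70 rows in WT sperm, 51 in Dicer cKO sperm and 47 in Drosha cKO sperm. These counts pool libraries of unequal depth and are not corrected for it. By library they were 51 and 66 (WT), 39 and 46 (Dicer cKO), and 42, 27 and 28 (Drosha cKO). A few rows carried most of the reads. The 12 most abundant members held 83.8% and 83.4% of the member reads in the WT libraries, and 11 of them come from Sfmbt2, with miR-467h as the exception.

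miR-669a-3p, the arm shared by up to 12 hairpins, was first by a wide margin. It was read 735 and 7250 times in WT sperm, 115 and 158 times with Dicer cKO, and 186, 29 and 19 times in Drosha cKO sperm. In CPM these were 10017 and 25996, then 935 and 1461, then 1843, 2416 and 1193. All 5 cKO libraries lay below both WT libraries, and the cKO genotypes overlapped each other. It held 40.7% and 45.3% of the member reads in WT sperm. Its other arm, miR-669a-5p, was nearly equal in the WT libraries (1349 and 1438 CPM), with 138 and 120.2 CPM for Dicer cKO and 198, 249.9 and 126 CPM for Drosha cKO.

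Next came miR-467e-5p, from a hairpin with 1 copy, at 2221 and 5468 CPM (WT), 211 and 509 CPM (Dicer cKO), and with 30, 5 and 9 reads in the Drosha cKO libraries (mean 426 CPM ± 134, SD, n = 3). The miR-466 rows followed. miR-466a-3p, also from 1 hairpin, had 1445 and 3112 CPM in WT sperm, 171 and 157 in Dicer cKO, and 149, 333 and 377 in Drosha cKO sperm. Both rows had no overlap between WT and cKO libraries. miR-466b-3p, from 8 hairpins, was the same in both WT libraries (1785 and 1786 CPM) although the whole class differed there by a factor of 2.33. The cKO values were 106 and 111 CPM (Dicer), and 208, 249.9 and 0 CPM (Drosha), the 0 being in replicate 3. miR-466d-3p was less separated, at 613 and 1868 CPM in WT, 24.4 and 129 in Dicer cKO, and 139, 417 and 628 in Drosha cKO sperm, so that Drosha cKO replicate 3 passed WT replicate 1.

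The remaining abundant rows were of miR-467 and miR-669. miR-467a-3p had 463 and 1897 CPM in WT sperm, 130.1 and 120.2 in Dicer cKO, and 149, 0 and 62.8 in Drosha cKO sperm. miR-467d-3p had 859 and 1413 CPM in WT sperm, 65.0 and 37.0 in Dicer cKO, and 29.7, 499.9 and 314 in Drosha cKO sperm. WT was highest for both, and the Drosha cKO libraries of miR-467d-3p were spread more widely than those of Dicer cKO. miR-467h, the member on chromosome 9, had 613 and 1165 CPM in WT sperm, 40.7 and 92.5 in Dicer cKO, and 109, 83.3 and 126 in Drosha cKO sperm, so that it too lay below both WT libraries in every cKO library. miR-467a-5p averaged 1150.0 CPM in WT sperm, miR-669f-3p 741 CPM and miR-467b-5p 602 CPM.

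**Figure D2:**
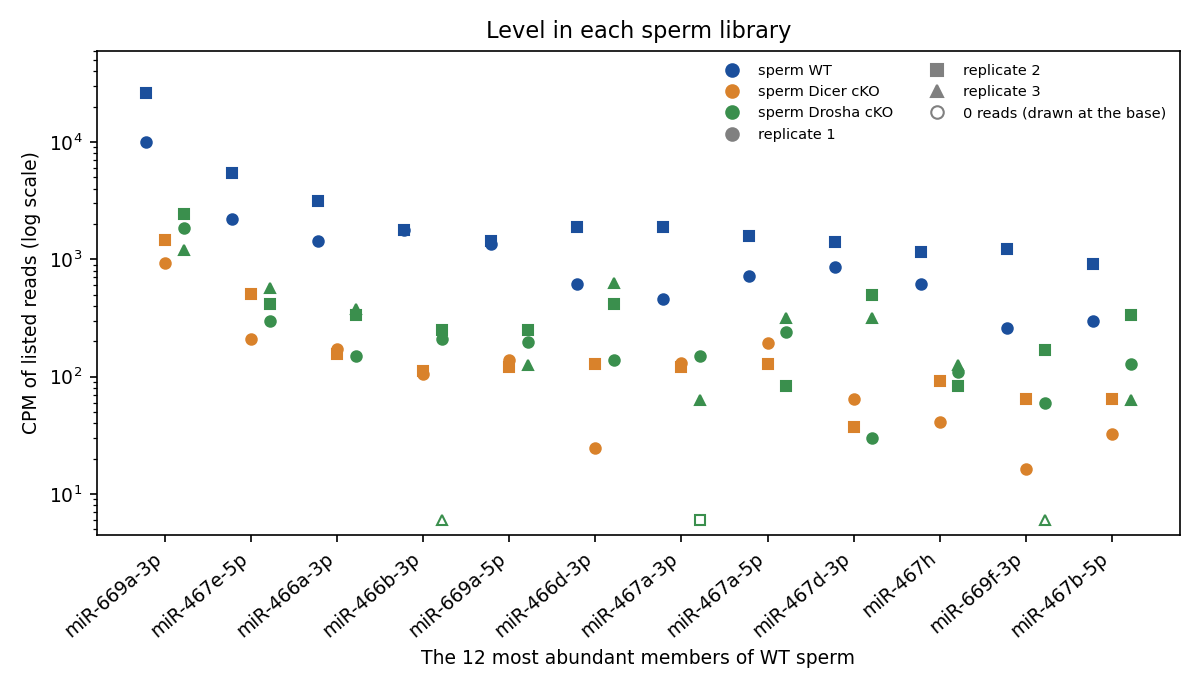
CPM (log scale) of the 12 most abundant members in each of the 7 sperm libraries, coloured by group and shaped by replicate, with open symbols for 0 reads. WT points lie above the cKO points for 10 of the 12, and for miR-466d-3p and miR-467b-5p the highest Drosha cKO library passes the lower WT library.

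The number of copies of a hairpin did not by itself order these levels. Over the 38 hairpin names with at least 1 copy within Sfmbt2, copies and mean WT CPM of both arms had a Spearman rho of 0.35, given as a description over names read in the same 2 libraries. miR-669a (12 copies) reached 19399.9 CPM, but miR-467e with 1 copy reached 4236 CPM, above miR-467a with 10 copies at 2330.1 CPM and miR-466b with 8 copies at 1820.3 CPM. Among the 29 names with 1 copy, levels along the locus were uneven. Mean WT CPM was 1004 for miR-669f at 0.566 kb from the first hairpin, 1.79 for miR-669g at 10.5 kb and for miR-466e at 12.4 kb, 2284 for miR-466a at 41.3 kb, and 13.6 for miR-669h at 51.5 kb. High and low hairpins stood side by side: miR-467e at 39.1 kb had 4236 CPM and miR-466p at 39.3 kb 51.3 CPM.

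**Figure D3:**
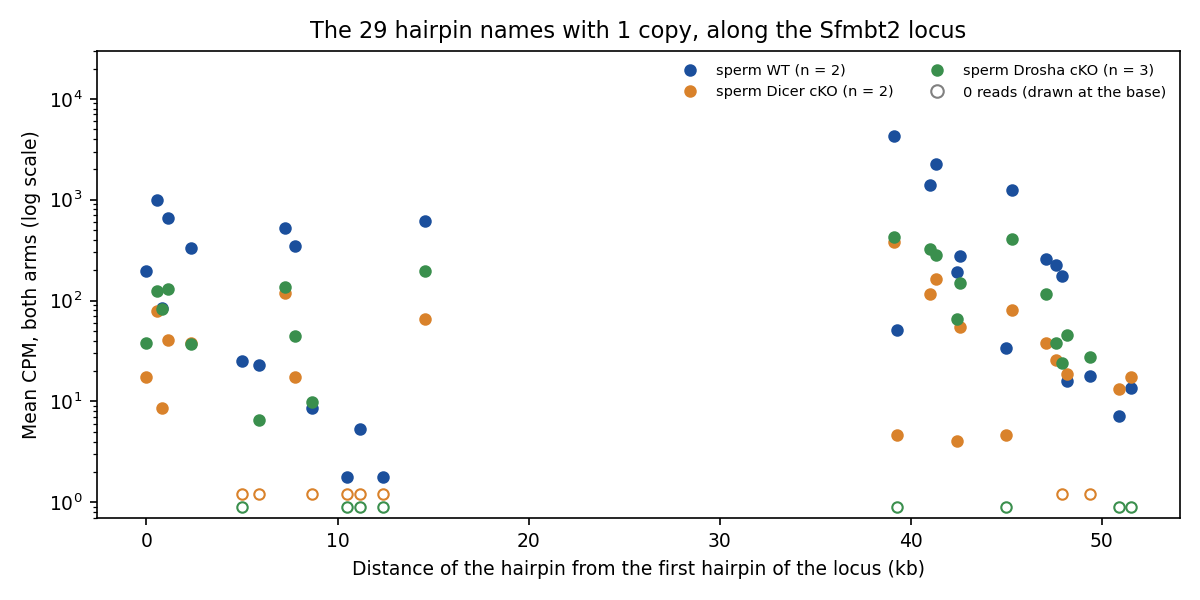
Mean CPM of both arms (log scale) for the 29 hairpin names with 1 copy, against distance in kb from the first hairpin of the locus, for WT (n = 2), Dicer cKO (n = 2) and Drosha cKO (n = 3) sperm, with open circles for 0 reads. WT levels run from 1.79 CPM to 4236 CPM (miR-467e at 39.1 kb); the stretch without points holds names with several copies.

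Arm use differed from hairpin to hairpin. In WT sperm the 3p arms held 70.4% ± 3.13 of member reads (SD, n = 2). Among the 20 hairpin names with at least 50 WT reads over both arms, 5 gave more than 90% of them from the 3p arm, 6 gave less than 10%, and 9 lay between. Hairpins of 1 family differed. The 3p share was 99.7% for miR-466a (exact 95% interval 99.1 to 99.9%) and 56.8% for miR-466m (45.3 to 67.8%). In the miR-669 family it was 94.1% for miR-669a (93.6 to 94.6%) and 1.88% for miR-669d (0.613 to 4.33%). These 2 shares leave out copies listed under their own names, miR-669a-3-3p (12 and 149 WT reads) and miR-669d-2-3p (0 and 14), and would be higher with them. In the miR-467 family it was 78.3% for miR-467d (74.7 to 81.5%) and 9.44% for miR-467e (8.15 to 10.9%). These pool both libraries and cover counting error only, and the WT libraries differed more than that for some names, as miR-467a shows with 39.1% and 54.6%.

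**Figure D4:**
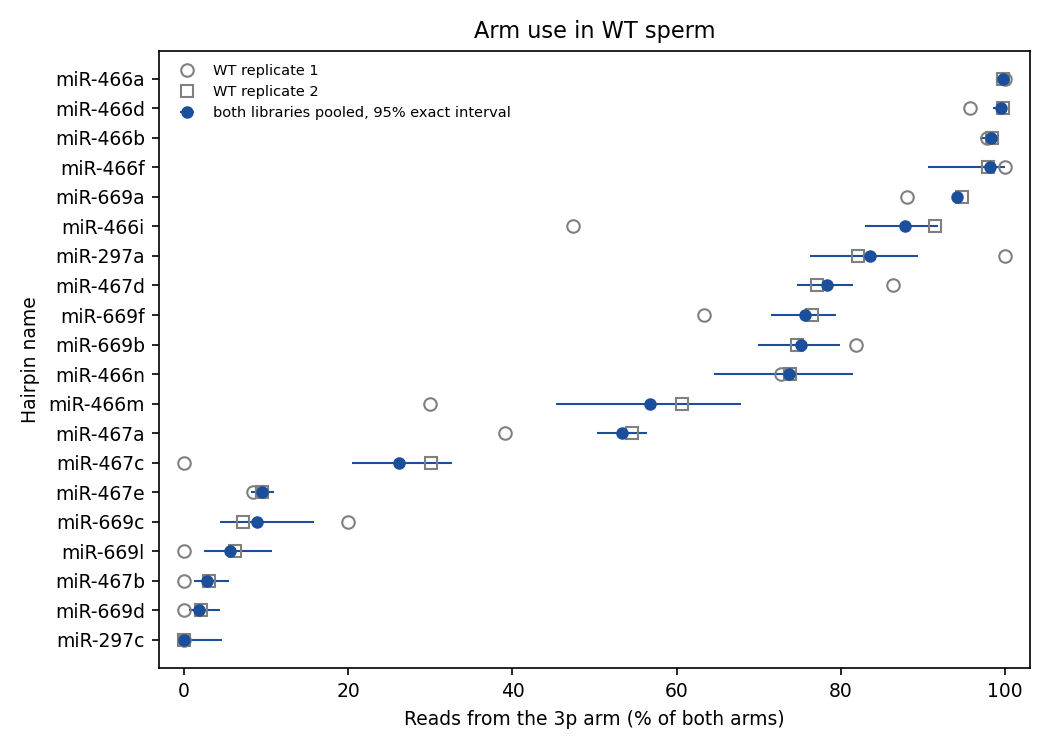
Share of reads from the 3p arm (%) for the 20 hairpin names with at least 50 reads in WT sperm, pooled over both libraries with the exact 95% interval (filled) and in each library (open). The names run from 0% for miR-297c to 99.7% for miR-466a.

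In Dicer cKO sperm, members of the cluster fell far below their level in WT sperm. All the cKO values so far are CPM, which ignore a shift in the bulk of the library. The fitted changes below are log2 differences from edgeR with TMM scaling, which brought the median change of all 335 tested rows to 0.03. The default expression filter passed 30 of the 70 members, and of these 29 fell, none rose and miR-466i-5p did not pass (edgeR's quasi-likelihood test, Benjamini-Hochberg adjusted over all tested rows, threshold 0.05). Over all tested rows 31.0% were called lower and 16.1% higher. The median change of the 30 members was -4.55, with a range from -6.23 to -0.49. These counts are no support on their own, since a member that passed the filter through its WT reads had to differ. The filter applied to the cKO libraries alone passed 16 members, of which 15 fell against WT and 1 did not pass the test. The share of all rows passing that filter that fell is not given here, so this count has no background.

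By family, the fall was called for 2 of 2 tested rows of miR-297, 7 of 8 of miR-466, 9 of 9 of miR-467 and 11 of 11 of miR-669. Both miR-297 rows passed the filter only through their WT reads. So did rows of each other family, among them miR-466c-5p, miR-467e-3p and miR-669m-3p. The counts by family, by arm and by place are therefore no support on their own. By arm it was called for 15 of 15 tested 3p rows (median change -4.93) and 13 of 14 tested 5p rows (median -4.01), a difference that was not tested. All 25 tested rows wholly within Sfmbt2 fell, and so did miR-467h and miR-466i-3p from other loci.

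miR-669a-3p changed by -4.80 (SE 0.714, adjusted p = 1.24e-04), and miR-467e-5p by -4.30 (SE 0.791, adjusted p = 5.12e-04). The order of abundance was not the order of change. The largest fall was that of miR-669m-3p, with 9 and 94 WT reads against 0 and 1, a pooled ratio of WT over Dicer cKO CPM of 67.6 with a counting interval of 11.9 to 2695. miR-297c-5p followed, with 11 and 66 WT reads against 1 and 0 (ratio 50.5, interval 8.80 to 2021). Better counted were miR-669b-3p at -5.34 (SE 1.02, adjusted p = 6.93e-04), from 245 and 749 CPM (WT) to 8.13 and 37.0 CPM (Dicer cKO), and miR-467d-3p at -5.25 (SE 1.04, adjusted p = 7.87e-04). No Dicer cKO library reached a WT library for any of these 4.

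All 29 called members had both Dicer cKO libraries below both WT libraries in CPM, as did 34.9% of all tested rows, and no member had both above (46.3% of all rows). The 29 include members that passed the filter only through their WT reads and are no support on their own. Of the 16 members that pass it on cKO libraries alone, 15 were below, without a share over all such rows beside them. The smallest called change was that of miR-466f-3p, at 123 and 169 CPM (WT) against 65.0 and 46.2 CPM (Dicer cKO). It fell by 2.17 with an adjusted p of 0.0478 and lost its call under 11 alternative settings, with adjusted p up to 0.750 when no row was filtered out. Among these were the omission of WT replicate 2 (adjusted p = 0.129), Dicer cKO replicate 1 (0.142), Dicer cKO replicate 2 (0.281), Drosha cKO replicate 1 (0.0730) and Drosha cKO replicate 3 (0.0522). Without WT replicate 2, 22 members were called.

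**Figure D5:**
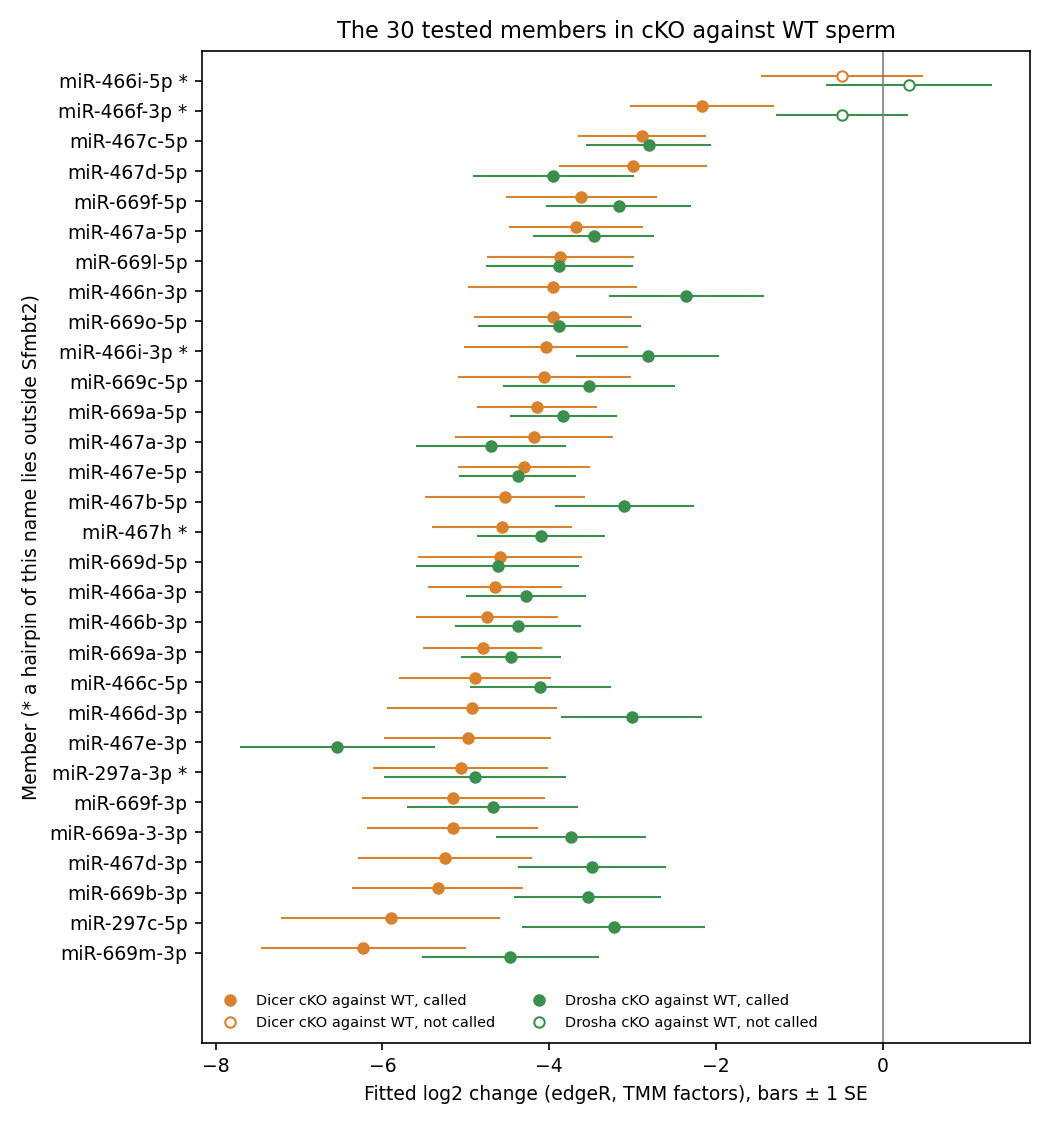
Fitted log2 change (edgeR, TMM factors, bars ± 1 SE) of the 30 tested members in Dicer cKO and Drosha cKO against WT sperm, filled where called and open where not; an asterisk marks names with a hairpin outside Sfmbt2. All points lie below 0 except miR-466i-5p in Drosha cKO, which with its Dicer cKO value and miR-466f-3p in Drosha cKO was not called; the sign of these uncalled changes turns with the scaling or filter.

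In Drosha cKO sperm most members fell as well. Of the 30 tested members 28 fell and none rose, with 33.1% of all tested rows called lower and 22.1% higher. The median change was -3.86 (range -6.54 to 0.31), beside 0.05 over all rows. Of the 16 members that pass the filter on cKO libraries alone, 14 fell and 2 did not pass, again without a share over all rows beside them. Both comparisons use the same WT libraries and are not independent of each other.

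By family the fall was called for 2 of 2 rows of miR-297, 6 of 8 of miR-466, 9 of 9 of miR-467 and 11 of 11 of miR-669. As for Dicer cKO, these counts include rows that passed the filter only through their WT reads. miR-669a-3p changed by -4.46 (SE 0.603, adjusted p = 4.93e-05), miR-467e-5p by -4.38 (SE 0.706, adjusted p = 1.75e-04) and miR-467h by -4.10 (SE 0.762, adjusted p = 4.58e-04). The largest fall was that of miR-467e-3p, the minor arm of its hairpin, with 15 and 161 reads in WT sperm against 1, 0 and 0 (pooled ratio 64.4, counting interval 11.4 to 2557). For miR-297a-3p 11 and 101 WT reads stood against 1, 1 and 0 (ratio 20.5, interval 5.54 to 171). Both rows passed the filter only through their WT reads. miR-467a-3p at -4.70 (SE 0.895, adjusted p = 5.50e-04) and miR-669f-3p at -4.68 (SE 1.03, adjusted p = 0.00155) rested on more reads. Of them, miR-669f-3p also passed the filter only through its WT reads, with 6, 2 and 0 reads in the Drosha cKO libraries.

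All 3 Drosha cKO libraries were below both WT libraries for 23 of the 30, against 30.1% of all rows, and above both for none, against 42.1%. The 23 include members that passed the filter only through their WT reads and are no support on their own. Of the 16 members that pass it on cKO libraries alone, 11 were below, without a share over all such rows beside them. The 7 others of the 30 included 5 called members, named here after their values were seen: miR-297c-5p, whose Drosha cKO replicate 3 had 188 CPM from 3 reads, miR-466d-3p, miR-466i-3p, miR-466n-3p and miR-467b-5p. All 7 but miR-297c-5p and miR-467b-5p are miR-466 rows. miR-466n-3p had 8 and 76 reads in WT and 4, 3 and 1 in Drosha cKO sperm, changed by -2.36 with an adjusted p of 0.0402, and lost its call under 10 settings, among them the omission of WT replicate 2 (adjusted p = 0.391), Drosha cKO replicate 1 (0.282) and Drosha cKO replicate 3 (0.107). The call of miR-297c-5p (-3.23, adjusted p = 0.0219) was lost without WT replicate 2, without Drosha cKO replicate 1 (0.194) and without Drosha cKO replicate 2 (0.0698), and that of miR-466d-3p (-3.01, adjusted p = 0.00747) without Drosha cKO replicate 1 (0.0545). Without WT replicate 2, 19 members were called in Drosha cKO sperm. With the deepest Drosha cKO library, replicate 1, as the only one, the filter passed 36 members, with a median change of -4.22. The lone library was then assumed to vary like the other groups.

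Among the 30 tested rows, 2 were not called lower in at least 1 knockout, and each has a hairpin outside Sfmbt2. miR-466i-5p, from the hairpin within Cdk13, had 136 and 64.5 CPM in WT sperm, 89.4 and 120.2 in Dicer cKO, and 19.8, 249.9 and 565 in Drosha cKO sperm. The groups overlapped fully. By edgeR its change in Dicer cKO sperm was -0.49 (95% interval -2.55 to 1.57). For Drosha cKO it was 0.31 (-1.81 to 2.42), and the sign of each turned under other settings. Its partner miR-466i-3p, printed above, had 123 and 692 CPM in WT, 32.5 and 64.7 in Dicer cKO, and 159, 83.3 and 126 in Drosha cKO sperm, and was called lower in both (-4.04, adjusted p = 0.00283, and -2.82, adjusted p = 0.0115). These calls were not stable. Without WT replicate 2 the changes were -2.08 (adjusted p = 0.105) and -0.81 (adjusted p = 0.563). With limma neither call passed (adjusted p = 0.0980 and 0.0981), and the Drosha cKO call was also lost without Drosha cKO replicate 2 (0.0540), with Drosha cKO replicate 1 alone (0.131), with library totals (0.0750) and with a replicate block (0.0543). In reads, the 3p and 5p arms had 9 and 10 in WT replicate 1 and 193 and 18 in WT replicate 2. They had 4 and 11, then 7 and 13, in the Dicer cKO libraries, and 16 and 2, 1 and 3, and 2 and 9 in the Drosha cKO libraries. The arms were thus in no fixed ratio within WT or within Drosha cKO. miR-466f-3p, with hairpins within Sfmbt2 and on chromosome 13, had 168, 499.9 and 62.8 CPM in Drosha cKO sperm against 123 and 169 in WT, and was not called (-0.49, 95% interval -2.16 to 1.18, adjusted p = 0.631).

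The 40 members that were not tested were rare, with at most 88 reads in the 7 sperm libraries together. They held 0.0709% and 0.189% of listed reads in WT sperm, 0.0154% and 0.0333% in Dicer cKO, and 0.0287%, 0.0667% and 0.0377% in Drosha cKO sperm. The most abundant was miR-466g, with 86 WT reads. Pooled CPM was higher in WT than in Dicer cKO for 33 of the 40 and higher than in Drosha cKO for 31. Of the 7 that were not higher than in Dicer cKO, 6 lie within Sfmbt2, such as miR-669c-3p (10 reads in WT and 7 in each knockout) and miR-669h-5p (2 in WT and 4 in Dicer cKO), and the other is miR-669n, from Slc30a7 (0 and 2 reads). Counts this low do not order the groups. No read in sperm was counted for 2 rows, miR-297b-3p and miR-297c-3p.

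No member separated Drosha cKO from Dicer cKO sperm by the test. None of the 30 was called, none had an unadjusted p under 0.05, and of all 335 rows 0% were called and 65 had an unadjusted p under 0.05 by edgeR. DESeq2 called no member and 18 rows, with 2 members under an unadjusted p of 0.05. The median change of the members was 0.46, with 24 of 30 above 0. For miR-669a-3p the difference was 0.34 (95% interval -0.89 to 1.58), and for miR-467e-5p -0.08 (-1.57 to 1.41). The interval for miR-466d-3p was -0.11 to 3.96, around 1.92. The sign of the members' median depended on the scaling: it was -0.47 with library sizes taken from the authors' RPM values, where the median of all rows was -0.90.

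The other lists of miRNAs place these changes among those of sperm RNA as a whole. Male germ cell miRNAs fell alongside: 5 of 5 tested rows of miR-34 and miR-449 in both knockouts (median -5.31 and -3.91), and 27 of 27 tested X-linked rows near Fmr1 (median -4.29 and -4.14). The miR-290-295 cluster fell in 2 of 2 tested rows (median -6.22 and -5.2). Both passed the filter only through their WT reads, as the whole cluster held at most 0.00370% of listed reads in Dicer cKO and 0.00628% in Drosha cKO sperm. The same holds for miR-878-5p among the X-linked rows. How many other listed rows passed in this way is not given here, so the counts of falls are no support on their own. In the imprinted Dlk1-Dio3 cluster 0 of 4 tested rows were called in either knockout (median -0.39 and 0.81). The rows nearest to the members' summed level across the 7 sperm libraries, by Pearson r of log2 CPM among 291 rows, were miR-471-3p (0.982) and miR-878-5p (0.977), both X-linked, then miR-449a-5p (0.959), miR-19a-3p (0.955) and miR-18a-5p (0.953). No function or control is read from this.

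Several markers of other cells were higher in the knockouts. Epithelial miRNAs (miR-200 family and miR-141) were called higher for 7 of 8 tested rows in Dicer cKO and 8 of 8 in Drosha cKO sperm, with none of the 10 listed rows at 0 in any sperm group. Their summed share of listed reads was 1.59 to 1.82% (WT), 13.1 to 16.2% (Dicer cKO) and 11.5 to 14.3% (Drosha cKO). Blood miRNAs (such as miR-451a and miR-142a) were called higher for 5 and 4 of 6 tested rows, with shares of 0.283 to 0.418% (WT), 4.29 to 4.68% (Dicer cKO) and 2.12 to 2.27% (Drosha cKO), where 2, 3 and 4 of the 10 rows were at 0. Stromal miRNAs were called higher for 2 of 6 rows in Dicer cKO and 0 of 6 in Drosha cKO, with shares of 0.342 to 0.854%, 1.95 to 2.73% and 1.14 to 1.77%, and 1, 0 and 1 of 9 rows at 0. Their part in the members' fall was not tested.

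Oocytes and 2PN embryos held few member reads, and each had 1 library, so their differences have no replicate check. The 34 rows with any read there summed to 50 reads in WT oocytes, 27 in WT 2PN embryos, 7 in Dicer cKO 2PN embryos and 33 in Drosha cKO 2PN embryos. As shares of listed reads these were 0.904% (exact 95% interval 0.672 to 1.19%), 0.833% (0.549 to 1.21%), 0.237% (0.0954 to 0.488%) and 0.368% (0.253 to 0.516%). Oocytes and WT 2PN embryos were close, with a ratio of 1.09 (0.667 to 1.80). WT 2PN embryos stood above those from Dicer cKO sperm by a ratio of 3.51 (1.49 to 9.55) and above those from Drosha cKO sperm by 2.26 (1.31 to 3.88). On the authors' RPM scale the 3 kinds of 2PN embryo had 31.1 (WT), 4.66 (Dicer cKO) and 27.1 RPM (Drosha cKO), so the difference from Drosha cKO depends on the scale. These intervals cover counting error only. Library and genotype cannot be told apart here.

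By family, miR-669 had 20 of the 50 member reads in oocytes, 2 of 27 in WT 2PN embryos, 2 of 7 in Dicer cKO 2PN embryos and 13 of 33 in Drosha cKO 2PN embryos. Of the 6 members with most reads over the 4 libraries, miR-467d-3p and miR-466b-3p were also among the 12 most abundant of WT sperm. miR-669c-5p led with 5, 1, 0 and 5 reads in WT oocytes and in WT, Dicer cKO and Drosha cKO 2PN embryos, in that order. miR-466i-3p followed with 3, 2, 0 and 5 reads, miR-467d-3p with 4, 5, 0 and 0, and miR-467f with 4, 2, 1 and 0. miR-669a-3p, first in sperm, had 3, 0, 1 and 1 reads. The 0 in WT 2PN embryos allows up to 925 CPM (3 reads), far below its 10017 CPM in the lower WT sperm library. Rows from loci outside Sfmbt2 held 18.0% of member reads in oocytes and 27.3% in Drosha cKO 2PN embryos, from 9 reads in each library, against 3.54% and 3.87% in WT sperm. They held 14.8% in WT 2PN embryos, from 4 reads, and 14.3% in Dicer cKO 2PN embryos, from 1 read. With rows wholly within Sfmbt2 alone, the shares of listed reads were 0.493% in WT 2PN and 0.245% in Drosha cKO 2PN embryos. By comparison, the miR-290-295 cluster, known from oocytes and early embryos, held 3.36% of listed reads in oocytes and 4.56% in WT 2PN embryos, and 0.542% and 1.52% in 2PN embryos from Dicer cKO and Drosha cKO sperm.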

How the data were processed

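Raw read counts per mature miRNA were used as the authors deposited them. The authors also deposited RPM values, each a count divided by 1 whole number per library, and what that number counts is not stated. Bowtie and mm10 are named in the submitters' processing notes, without a counting rule or miRNA release. Sperm groups were compared in edgeR 4.0.16 (R 4.3.3) over all 7 sperm libraries, with TMM factors, the default expression filter, the quasi-likelihood test (two-sided) and Benjamini-Hochberg adjustment over 335 tested rows at 0.05; it was tested on simulated data. SE is the log2 change divided by the root of F. CPM uses listed reads (2951 to 278890 per library). Intervals of shares are 95% exact (Clopper-Pearson). Hairpins were placed by RefSeq (GRCm38); miR-466a was matched to the gene Mir466. Named members were the 12 most abundant in WT sperm, those not called lower, the 4 largest falls and, in early libraries, the 6 with most reads. Other members named for arm use, position or overlap were picked after their values were seen. Members and lists were chosen with earlier results of these data known. DESeq2 1.42.0, limma 3.58.1, other scalings and filters, a replicate block and omission of each library were the alternatives.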

Additional observations from a re-analysis of the deposited data

How the results depend on the processing

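With limma on log2(RPM + 1), 19 members were called in Dicer cKO sperm and 26 in Drosha cKO. Leaving out 1 library at a time gave 22 to 36 calls in Dicer cKO, 19 to 34 in Drosha cKO and 0 to 0 between the knockouts; the mean shares of listed reads ranged from 2.46 to 5.74% (WT), 0.281 to 0.409% (Dicer cKO) and 0.529 to 0.680% (Drosha cKO). The low counts came without WT replicate 2, which holds most WT reads, where 30 members were tested. The high counts came without WT replicate 1, where the filter passed 38 members. With no low-count filter 68 members were tested, and 22 were called in Dicer cKO and 30 in Drosha cKO. Library totals in place of TMM factors moved the median of all rows to 0.62 (Dicer cKO) and 1.04 (Drosha cKO), and the members' medians to -3.66 and -2.83. As shares of the authors' divisors, members held 0.315% (WT), 0.0205% (Dicer cKO) and 0.0160% (Drosha cKO) in sperm, 0.00442% in oocytes, and 0.00311%, 4.66e-04% and 0.00271% in WT, Dicer cKO and Drosha cKO 2PN embryos. With rows wholly within Sfmbt2 the 2PN shares were 0.493% (WT) and 0.245% (Drosha cKO).

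With a replicate block 29 members were called in Dicer cKO, 26 in Drosha cKO and 0 between the knockouts. The labels do not say that a number pairs libraries, and only 2 numbers are shared. Deviations of same-numbered libraries had correlations of 0.31 (WT and Dicer cKO), 0.25 (WT and Drosha cKO) and 0.29 (Dicer cKO and Drosha cKO) for number 1. For number 2 they were 0.31, 0.19 and 0.18 in the same order. In a group of 2 libraries the deviations mirror each other, so these values are not separate checks and cannot decide whether libraries were paired. Of the named changes, miR-466i-3p (-1.80, adjusted p = 0.0543) and miR-466n-3p (-1.72, adjusted p = 0.121) lost their Drosha cKO call under the block.

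Against WT, reversals concerned only miR-466i-5p in both knockouts and miR-466f-3p in Drosha cKO, changes that were not called. Between the knockouts, where no member was called, signs turned more widely, and miR-669a-3p is given as an example. Members with a change above 0 there numbered 24 of 30 with TMM factors, 10 with the authors' divisors and 9 with limma. miR-466i-5p in Dicer cKO went to 0.14 with library totals, 0.38 with the authors' divisors, 0.33 with limma, 0.08 with no filter and 0.13 with at least 10 CPM in 2 libraries. In Drosha cKO it went to -0.17 with no filter, -0.06 with at least 10 CPM, -1.32 with the block, -0.01 over miRNA rows only, -3.31 with Drosha cKO replicate 1 alone, and below 0 when any of 5 libraries was left out (range over all 7 omissions -1.13 to 1.36). miR-466f-3p in Drosha cKO went to 0.53 with library totals, 0.02 with the block and to 0.10 without Drosha cKO replicate 3 (range over the omissions -1.40 to 0.10). miR-669a-3p between the knockouts went to -0.58 with the divisors, -0.54 with limma, -0.47 with no filter, -0.42 with at least 10 CPM, and below 0 when WT replicate 1 or Dicer cKO replicate 1 was left out (range over the omissions -0.18 to 0.61). The cause was not tested. Rows of 1 to 3 reads limit what could be ranked among the largest falls.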
